A study of Mus musculus with 6 samples.

Results

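The integrin and laminin genes of the mouse were taken by symbol from the table of all genes. The rule kept Itga followed by a number (with or without a b after it) or by one of the letters d, e, l, m, v and x. It also kept the genes Itgb1 to Itgb8 and the Lama, Lamb and Lamc chains. It found 37 of the 41126 genes in the table, of which 18 encode integrin α subunits, 8 encode integrin β subunits and 11 encode laminin chains. The RNA came from primary fibroblasts of ventral trunk skin of mice labelled as postnatal day 4, on a mixed CD1 and C57Bl6 background. For the age, the study's methods give a range that begins at day 4 and runs some days later. Cells of each animal were grown separately, passaged and infected with adenovirus before RNA was sequenced. The 3 GOF cultures (gain of function) are labelled AdCre and Ctnnb1{delta}ex3/+, meaning that viral Cre recombinase excised exon 3 of 1 allele of Ctnnb1, which leaves β-catenin protein that escapes degradation. The 3 Control cultures received a virus carrying GFP and are labelled AdGFP and +/+, whereas the study's methods describe all fibroblasts as coming from mice with the Ctnnb1 exon 3 allele.

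The design has limits that touch every value. The groups differed in the virus (Cre or GFP) as well as in β-catenin, and these cannot be told apart. The study's methods give the Cre virus a range of doses that starts at the dose of the GFP virus and goes above it. The dose may thus have differed between the groups too. The virus acts on any cell of the dish it enters, and the share of recombined cells is not given in the sources used here. A treatment note entered for every sample names the Cre virus, also for the AdGFP cultures. By the animal numbers in the labels, 1 animal gave both Control 0 and GOF 2 and another gave both Control 2 and GOF 0, while Control 1 and GOF 1 came from animals used once. Cultures of 1 animal share the inherited genotype, although Control 0 and Control 2 are labelled +/+ and GOF 2 and GOF 0 Ctnnb1{delta}ex3/+. In bulk RNA, fewer cells of a type and less RNA per cell cannot be told apart.

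Integrins are cell surface receptors built of an α and a β subunit, and they tie the matrix outside the cell to actin inside it. The α subunit largely sets the ligand: a collagen class, a laminin class, a class that reads the RGD motif of fibronectin and vitronectin, the α4 and α9 pair, and a leukocyte class. Laminins are trimers of an α, a β and a γ chain that form the sheet of the basement membrane, and dermal fibroblasts supply part of the laminin under the epidermis while they themselves sit in collagen.

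The libraries held between 35980831 and 42834467 fragments assigned to genes. Axin2, a transcriptional target that reports β-catenin activity, was higher in GOF by 6.98 on the log2 scale (SE 0.26, adjusted p = 4.95e-05, edgeR). Ctnnb1 itself differed by -0.05 (SE 0.15, adjusted p = 0.844, edgeR), a value over all its exons that does not check the excision. Levels are given as FPKM, fragments scaled to transcript length and library depth, so that genes of different length can be compared, and fold changes are of GOF against Control from the fragment counts. A gene was called when its adjusted p (edgeR quasi-likelihood test, Benjamini-Hochberg over 15462 tested genes) was under 0.05 and its fold change exceeded 2. With 3 cultures against 3, an exact two-sided permutation test of a single gene cannot give a p under 0.1. The edgeR test also draws on all genes to estimate the spread of each gene. All 12 fibroblast markers passed the filter, and 2 of them (Dcn and Col1a2) were called lower in GOF and 0 higher, beside 5.64% and 6.69% of all tested genes. Their summed level ran from 3147 to 4003 FPKM in Control and from 2628 to 3244 FPKM in GOF, and DESeq2 called 2 as well. Dcn, the collagen-binding proteoglycan decorin, fell from 982, 1016 and 1175 FPKM in Control to 289.2, 449.6 and 251.2 FPKM in GOF, by 1.67 on the log2 scale (adjusted p = 0.00584, edgeR), and Col1a2, a collagen I chain, fell by 1.18 (adjusted p = 0.0375, edgeR). Vim, an intermediate filament protein, and Fap, a surface protease of activated fibroblasts, went the other way, at 0.70 and 0.75 with a fold under 2 (adjusted p = 0.0280 and 0.0303, edgeR). At an unadjusted p under 0.05, 4 of the 12 were higher and 3 lower (edgeR), beside 17.6% higher and 17.3% lower over all tested genes.

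Of the 37 genes, 34 passed the filter on low counts and were tested. Called higher in GOF were 8 of the 34 (23.5%), against a background of 6.69% of all tested genes. Called lower were 4 of the 34 (11.8%), against a background of 5.64%. An adjusted p under 0.05 at any fold was reached by 15 (44.1%, edgeR), where 21.2% of all tested genes reached it. Fully separate FPKM ranges in Control and GOF were seen for 20 of the 34 (58.8%), 13 with GOF above and 7 with GOF below, beside 39.5% of all tested genes. The median log2 fold change over the 34 was 0.241, with a median of -0.016 over all tested genes, and it was 0.027 without Control 0 and 0.028 without GOF 2. Genes that were low in both groups made up much of the family: 17 of the 37 had a mean under 1 FPKM in each group, and 5 of the 12 called genes were among them.

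**Figure D1:**
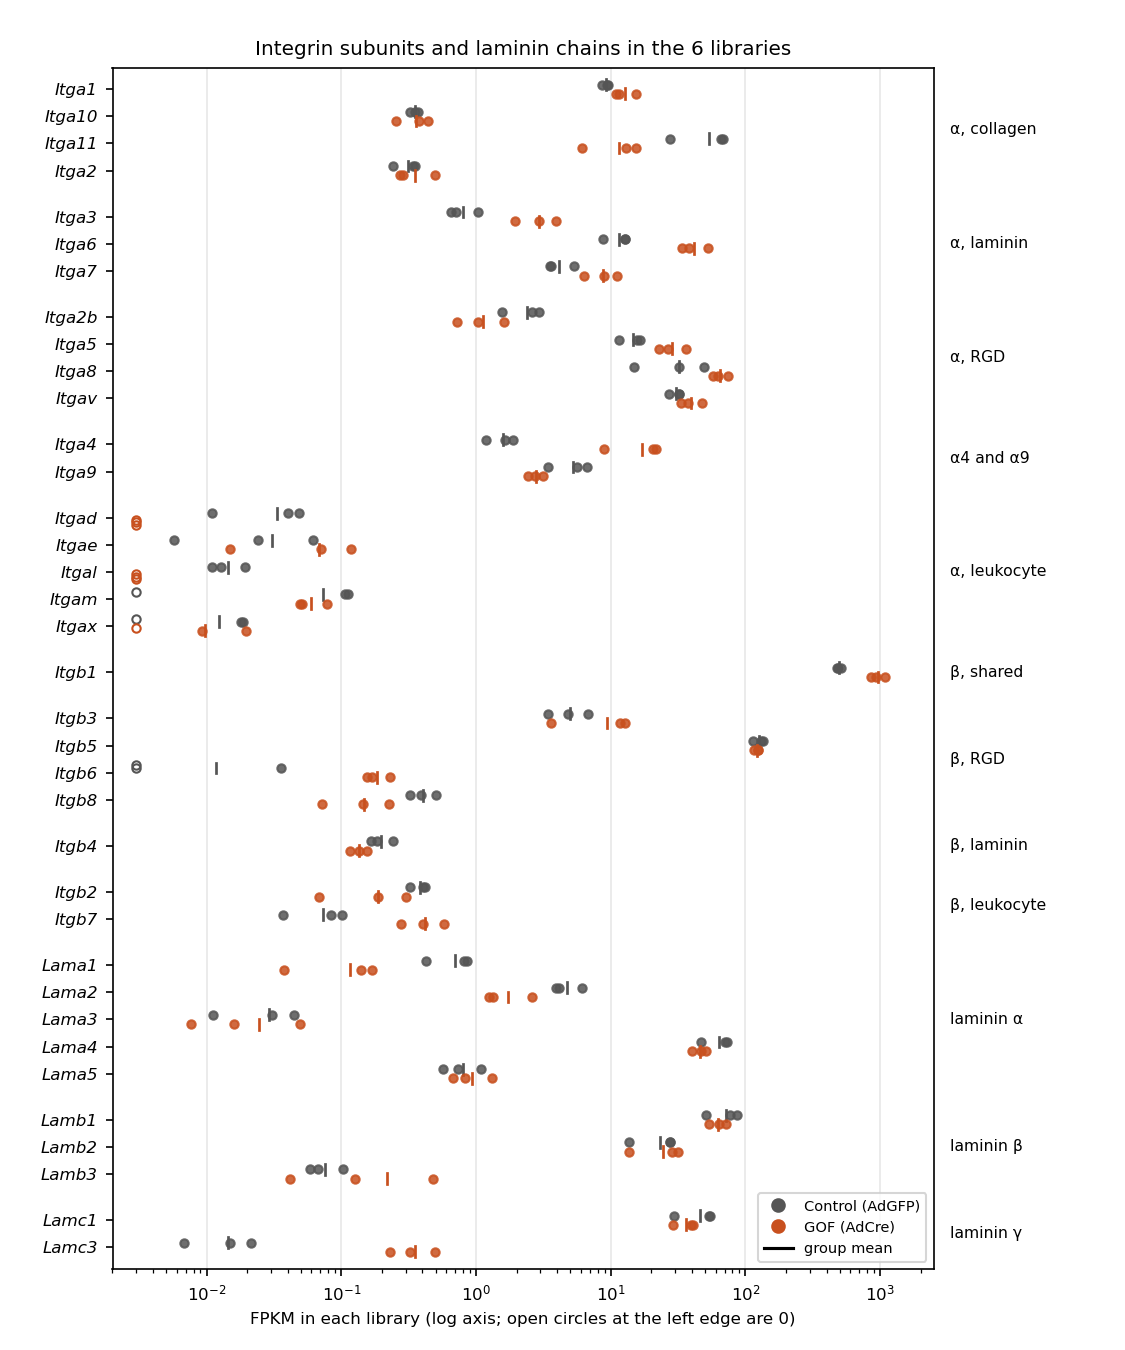
FPKM of the genes described here in each library on a log axis, grouped by class at the right, with grey points for Control, orange points for GOF, short bars for group means and open circles at the left edge for values of 0. The highest gene is Itgb1, between 475 and 1078, and the leukocyte-class α subunits stay at or under 0.119 in every library.

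The laminin-binding α subunits were the class in which every member was called, all 3 of them higher. Itga6, which pairs with β1 or β4 as the main laminin receptor of epithelial cells (chr2:71745616-71858416, plus strand, mm10), stood at 8.83, 12.8 and 12.8 FPKM in Control 0, 1 and 2 and at 33.6, 38.1 and 52.9 FPKM in GOF 0, 1 and 2. Every GOF library lay above every Control library. Its fitted log2 fold change was 3.04 (SE 0.35, adjusted p = 0.00148, edgeR).

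Itga3, whose product pairs with β1 and binds the laminins of the epidermal basement membrane (chr11:95044474-95076801, minus strand), measured 0.656, 0.706 and 1.03 FPKM in Control and 3.94, 1.95 and 2.94 FPKM in GOF. The groups were apart, with GOF 0 highest and a log2 fold change of 1.73 (SE 0.27, adjusted p = 0.00509, edgeR). Itga7, a laminin receptor best known from muscle fibres (chr10:128933818-128958282, plus strand), measured 3.60, 3.54 and 5.32 FPKM in Control and 11.2, 8.96 and 6.28 FPKM in GOF. Its groups came closest at Control 2 and GOF 2 without overlap, and the log2 fold change of 1.04 (SE 0.23, adjusted p = 0.0169, edgeR) sat at the fold threshold. With animal as a block the estimate was 0.96 (adjusted p = 0.00793, edgeR), under a fold of 2, so the call was lost there. Here and below, that block compares the groups only within animals that gave both a Control and a GOF culture. Control 1 and GOF 1 thus add nothing to its folds, and it leaves 1 residual degree of freedom. Itga7 lost its call in 9 of 16 alternatives, among them those without Control 0 (0.95), without Control 1 (0.95) or without GOF 0 (0.83).

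The size of the Itga6 difference depended on the measure. The fragments assigned to Itga6 were 441, 482 and 373 in Control and 2969, 2280 and 5890 in GOF, an 8.19-fold ratio of depth-scaled means, whereas the ratio of mean FPKM was 3.62. Itga6, Itgam, Itga2b and Lama5 were the 4 members whose 2 ratios lay more than 0.5 apart on the log2 scale, which held for 1.1% of all tested genes. FPKM divides by a length that the authors' program estimates for each library from the transcripts in use, and the part of that step in the gap was not tested. The Itga6 difference passed both thresholds in limma on log2(FPKM + 1) as well, at 1.76 (adjusted p = 0.00189).

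**Figure D2:**
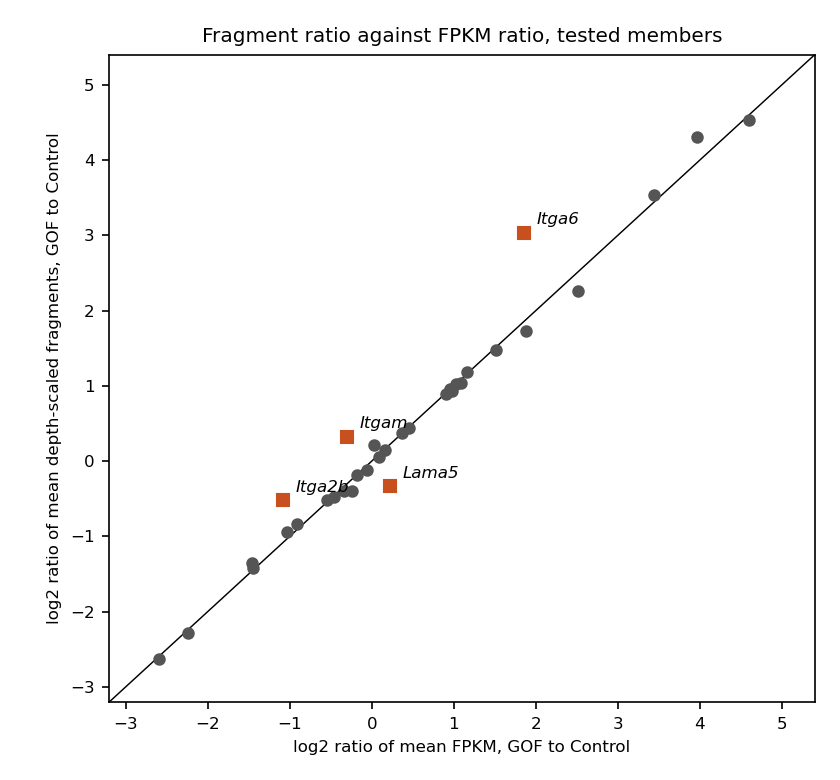
Log2 ratio of GOF to Control in depth-scaled fragments (vertical axis) against the log2 ratio in FPKM (horizontal axis) for the tested genes described here, with the line of equality. Most points lie on the line, and the orange squares are the 4 genes more than 0.5 from it, Itga6 farthest above.

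Some markers of other cells moved beside the laminin receptors, where 6.69% of all tested genes were called higher and 5.64% lower. Of 14 keratinocyte markers, 5 passed the filter and 2 of these were called higher: Dsp, a desmosome plaque protein, and Perp, a desmosome membrane protein, at 5.74 and 3.14 on the log2 scale (adjusted p = 2.32e-04 and 0.00574, edgeR). The summed level of the 14 ran from 2.39 to 4.06 FPKM in Control and from 12.7 to 40.0 FPKM in GOF. Most of the GOF sum was Perp (12.2, 9.33 and 32.5 FPKM in GOF 0, 1 and 2) and Dsp (4.04, 2.39 and 6.36 FPKM). The other tested keratinocyte markers, Col17a1, Sfn and Krt10, were not called. Their log2 fold changes were -0.37 (SE 0.36), 0.16 (SE 0.51) and -0.08 (SE 0.30). Krt5, Krt14, Krt1, Krt17, Trp63 and Epcam stayed under 0.1 FPKM in every library and Dsg3 was at 0. Of 9 skeletal muscle markers, 3 were tested and 2 called higher, the actin Acta1 (2.53, adjusted p = 1.05e-04, edgeR) and the acetylcholine receptor subunit Chrna1 (2.09, adjusted p = 0.00246, edgeR). Their summed level was 23.6 to 27.8 FPKM in Control and 139 to 173 FPKM in GOF, nearly all of it Acta1, with Pax7 at 0 and Myod1, Myf5 and Ckm under 0.1 FPKM. Of 10 endothelium markers 8 were tested and 3 called: Esam, a junction protein, and Kdr, a VEGF receptor, were higher by 3.05 and 1.77 (adjusted p = 0.00360 and 0.0110, edgeR), and Tek, the angiopoietin receptor, was lower at -2.27 (adjusted p = 0.0190, edgeR). The summed endothelium level was 9.86 to 11.5 FPKM in Control and 11.8 to 13.1 FPKM in GOF, with Tie1 under 0.1 FPKM. All 9 pericyte and smooth muscle markers were tested and 1 was called, Cnn1, a smooth muscle calponin, higher by 1.25 (adjusted p = 0.00824, edgeR), while 3 were called with animal as a block. Their sum was 1672 to 2335 FPKM in Control and 2009 to 3661 FPKM in GOF. Of 7 Schwann cell markers 6 were tested and 0 called by edgeR or DESeq2, with 1 at an unadjusted p under 0.05 and 1 called with animal as a block, and their sum was 4.81 to 11.1 FPKM in Control and 6.01 to 9.51 FPKM in GOF. The part of other cells in the rise of Itga3, Itga6 and Itga7 was not tested.

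The collagen receptors did not move together. Itga11, the α subunit through which fibroblasts grip fibrillar collagen (chr9:62677826-62783982, plus strand), fell from 27.7, 65.8 and 68.2 FPKM in Control to 15.4, 6.07 and 12.9 FPKM in GOF. No GOF library reached the lowest Control library, Control 0. The log2 fold change was -2.28 (SE 0.44, adjusted p = 0.0107, edgeR), and with animal as a block it was -1.62 (adjusted p = 0.00467, edgeR). Itga1, a receptor for basement membrane collagen, measured 9.60, 9.39 and 8.66 FPKM in Control and 11.6, 10.9 and 15.5 FPKM in GOF, all GOF libraries above all Control libraries, with a log2 fold change of 0.44 (SE 0.13, adjusted p = 0.0430, edgeR) that stayed under a fold of 2. Itga2, a receptor for fibrillar collagen, and Itga10, a collagen receptor known from cartilage, were under 0.5 FPKM in every library, and their log2 fold changes of 0.14 and 0.20 were smaller than their SEs of 0.30 and 0.32.

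As a share of all integrin α FPKM, the collagen class took 32.7%, 42.7% and 37.7% in Control 0, 1 and 2 and 10.6%, 8.38% and 12.9% in GOF 0, 1 and 2. The laminin class took 11.3%, 9.62% and 9.26% in Control and 18.7%, 23.5% and 27.4% in GOF. The RGD class was the main one in all 6 libraries, with 43.5% to 52.0% in Control and 54.6% to 61.1% in GOF. Thus the laminin class exceeded the collagen class in each GOF library and the reverse held in each Control library. Within the collagen class, Itga11 made up 73.1% to 87.9% of the FPKM in Control and 34.8% to 55.7% in GOF, where Itga1 supplied most of the rest. These shares restate the levels above and were not tested.

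**Figure D3:**
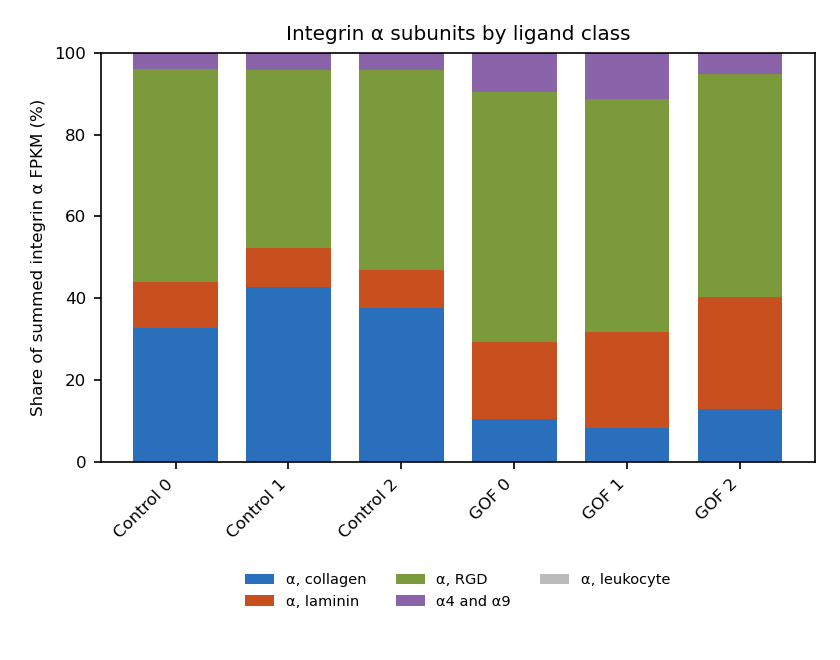
Stacked shares, in percent, of summed integrin α FPKM by ligand class in the 6 libraries. The collagen class falls from between 32.7% and 42.7% in Control to between 8.38% and 12.9% in GOF.

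Itga4 had the largest fold change of the α subunits. Its product pairs with β1 or β7 and binds fibronectin and VCAM-1 rather than laminin or collagen, and it is best known from leukocytes (chr2:79255426-79333123, plus strand). It measured 1.18, 1.65 and 1.89 FPKM in Control and 21.8, 20.7 and 8.88 FPKM in GOF, with GOF 2 below the other two and still above all Control libraries. The log2 fold change was 3.53 (SE 0.40, adjusted p = 0.00133, edgeR). Cerkl overlaps Itga4 on the opposite strand and was called higher too, at 2.69 (SE 0.52, adjusted p = 0.0103, edgeR), with 25, 40 and 61 fragments in Control and 363, 356 and 107 in GOF. Whether the authors' counting used the strand is not stated, so reads of the 2 genes where they overlap may not be told apart. Itga9, the closest relative of Itga4, measured 3.41, 5.64 and 6.66 FPKM in Control and 3.15, 2.45 and 2.74 FPKM in GOF. The Itga9 groups did not overlap, the log2 fold change was -0.83 (SE 0.25, adjusted p = 0.0514, edgeR), and without Control 0 it was called lower at -1.09 (adjusted p = 0.00157, edgeR).

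The promoters of called members were searched because β-catenin acts through DNA-bound TCF and LEF factors. The window ran from 250 bases before the start site to 50 bases after it, from RefSeq on GRCm38.p6, and 23 of the 37 genes had one, with 26 windows in all. The word AACAAAG was looked for on both strands, and so were ATCAAAG, the word TACAAAG and the word TTCAAAG. None of the 9 windows of the 7 called genes with a window held one, in exact matching of these letters only. Of the 26 windows 2 held one, or 7.69%, where the share over all 32851 promoters was 16.9% and over tested genes 11.8%. Shown are the windows of the α subunits with the largest rise and the largest fall, Itga4 (chr2:79255176-79255475, plus strand) and Itga11 (chr9:62677605-62677904, plus strand), and for contrast that of Itga1 (chr13:115101915-115102214, minus strand), chosen after its match was seen. Capitals mark the matched word, CTTTGAA, which is TTCAAAG on the other strand, and its first base lies at position -113 from the start site. The other window with a match was that of Itga10.
Itga4: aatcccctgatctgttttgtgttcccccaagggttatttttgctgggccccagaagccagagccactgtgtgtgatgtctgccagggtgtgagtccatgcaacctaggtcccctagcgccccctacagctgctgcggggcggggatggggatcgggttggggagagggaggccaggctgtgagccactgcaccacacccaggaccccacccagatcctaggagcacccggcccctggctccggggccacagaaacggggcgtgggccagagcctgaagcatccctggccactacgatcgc
Itga11: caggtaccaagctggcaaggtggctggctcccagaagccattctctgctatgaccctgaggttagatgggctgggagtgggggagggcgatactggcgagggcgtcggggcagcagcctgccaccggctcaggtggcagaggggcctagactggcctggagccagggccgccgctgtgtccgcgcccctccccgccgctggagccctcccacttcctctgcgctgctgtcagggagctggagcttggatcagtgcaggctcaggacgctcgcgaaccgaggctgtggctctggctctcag
Itga1: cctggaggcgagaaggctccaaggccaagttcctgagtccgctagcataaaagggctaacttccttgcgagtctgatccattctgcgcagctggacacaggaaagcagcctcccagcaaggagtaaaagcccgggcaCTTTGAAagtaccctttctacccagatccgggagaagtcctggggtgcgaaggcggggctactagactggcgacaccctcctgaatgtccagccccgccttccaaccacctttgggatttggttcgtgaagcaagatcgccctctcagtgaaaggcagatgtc

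The leukocyte-class α subunits were scarcely present. Itgad had 1, 3 and 2 fragments in Control and 0 in each GOF library, Itgal had 2, 4 and 2 in Control and 0 in each GOF library, and Itgax had at most 4 anywhere, so these 3 were not tested. Itgae and Itgam had at most 23 fragments in any library and log2 fold changes of 1.13 (SE 0.84) and 0.28 (SE 0.85). Of their β partners, Itgb2 measured 0.323, 0.415 and 0.404 FPKM in Control and 0.186, 0.304 and 0.0679 FPKM in GOF, with a log2 fold change of -0.94 (SE 0.58, adjusted p = 0.293, edgeR). Itgb7, the partner of α4 and αE (chr15:102215995-102231944, minus strand), rose from 0.0833, 0.101 and 0.0366 FPKM to 0.278, 0.577 and 0.406 FPKM, by 2.24 (SE 0.44, adjusted p = 0.0113, edgeR). These levels rest on 4 to 12 fragments per Control library and 30 to 47 per GOF library. Of 15 macrophage and leukocyte markers 9 were tested, with a median log2 fold change of -0.012. Of these 1 was called, Csf1r, a macrophage growth factor receptor, higher by 1.52 (adjusted p = 0.00186, edgeR). The summed level of the 15 was 13.4 to 25.0 FPKM in Control and 10.7 to 31.65 FPKM in GOF. Lyz2, a lysozyme, was present in every library, at 8.25, 16.9 and 15.6 FPKM in Control and 9.12, 17.3 and 4.22 FPKM in GOF. Cd14 had means of 2.79 FPKM in Control and 2.85 FPKM in GOF, and Cd68 had means of 1.31 and 1.64 FPKM. Lyz2, Cd14 and Cd68 were not called. Ptprc, Cd3d, Cd79a and Fcgr1 were under 0.1 FPKM and Cd3e was at 0. The part of such cells in the Itga4 and Itgb7 values was not tested.

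The RGD class was the most abundant class of α subunits. Itga5, the fibronectin receptor, rose from 11.5, 15.6 and 16.6 FPKM in Control to 36.3, 26.6 and 22.9 FPKM in GOF. The groups were apart, and the log2 fold change of 0.93 (SE 0.21, adjusted p = 0.0188, edgeR) was just under a fold of 2. With animal as a block it was 1.07 (adjusted p = 0.00244, edgeR) and called higher, and it crossed a fold of 2 as well when Control 1, Control 2, GOF 1 or GOF 2 was left out.

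Itga8, which binds the matrix protein nephronectin, varied widely in Control, at 14.8, 32.1 and 48.9 FPKM, beside 74.7, 57.5 and 62.4 FPKM in GOF. No GOF library fell into the Control range, yet the log2 fold change of 1.03 (SE 0.38) had an adjusted p of 0.0963 (edgeR). With animal as a block it was 1.29 (adjusted p = 0.0258, edgeR) and called higher, and it was called without Control 2 too (1.48, adjusted p = 0.0295, edgeR). Itgav, which serves several β subunits as a receptor for vitronectin and latent TGFβ, measured 32.4, 26.9 and 32.3 FPKM in Control and 47.7, 33.1 and 37.4 FPKM in GOF, a log2 fold change of 0.37 (SE 0.16, adjusted p = 0.156, edgeR). Itga2b, the platelet fibrinogen receptor, measured 1.56 to 2.93 FPKM in Control and 0.726 to 1.60 FPKM in GOF, with overlap at the edge and a log2 fold change of -0.52 (SE 0.23, adjusted p = 0.158, edgeR).

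**Figure D4:**
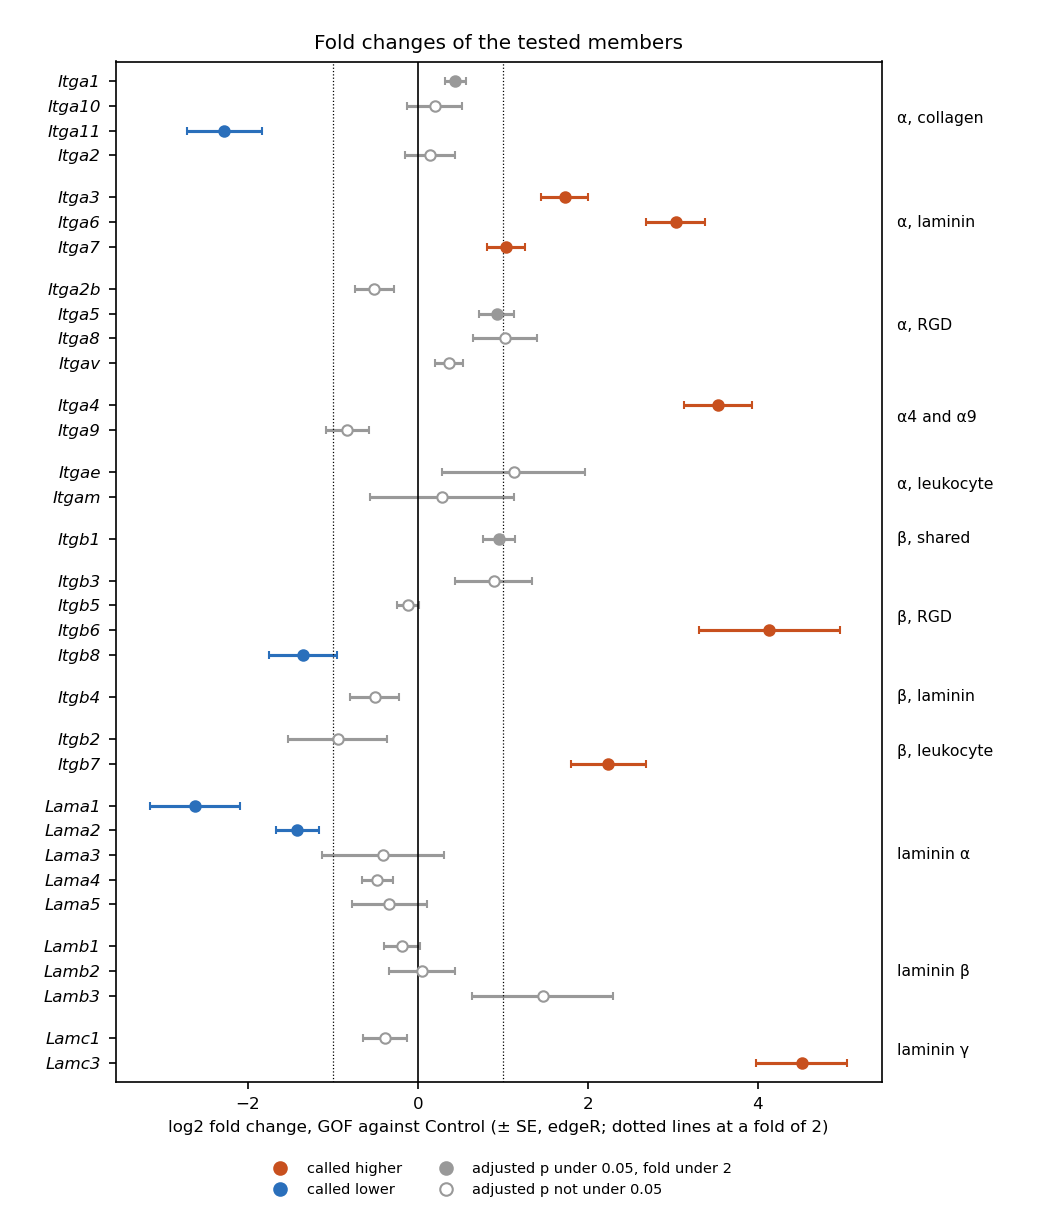
Log2 fold change of GOF against Control with its SE (edgeR) for the tested genes described here, by class, with dotted lines at a fold of 2. Orange points were called higher, blue points lower (4 genes), filled grey points had an adjusted p under 0.05 with a fold under 2 (3 genes), and open points did not pass.

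Among β subunits, Itgb1 carried most of the signal. It is the common partner of the collagen and laminin classes and of several others, and it measured 475, 512 and 490 FPKM in Control and 853, 1078 and 937 FPKM in GOF. The Control libraries lay close together and all GOF libraries lay well above them. The log2 fold change was 0.96 (SE 0.19, adjusted p = 0.0106, edgeR), a 1.94-fold rise that missed the fold threshold, which it passed without GOF 0 (1.04) or without GOF 2 (1.03). Its share of all β FPKM was 77.5% to 80.1% in Control and 86.9% to 88.6% in GOF. The sum of all α subunits was 116, 178 and 206 FPKM in Control and 261, 209 and 227 FPKM in GOF, so Itgb1 alone exceeded the α sum in every library.

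The β subunits that pair with αv did not move as a block. Itgb5, a vitronectin receptor chain and the only other β subunit above 100 FPKM, measured 114, 132 and 135 FPKM in Control and 117, 124 and 124 FPKM in GOF. Those ranges overlapped, and the log2 fold change was -0.12 (SE 0.13, adjusted p = 0.553, edgeR). Itgb3, the other vitronectin receptor chain, measured 3.42, 4.78 and 6.83 FPKM in Control and 11.8, 12.8 and 3.61 FPKM in GOF. GOF 2 lay inside the Control range, the log2 fold change was 0.89 (SE 0.46, adjusted p = 0.212, edgeR), and without GOF 2 it was 1.28 and called higher (adjusted p = 0.0185, edgeR).

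Itgb6 and Itgb8, whose αv dimers release active TGFβ from its latent complex, were low and opposite in direction. Itgb6 (chr2:60598292-60722643, minus strand) had 0, 0 and 5 fragments in Control and 35, 37 and 24 in GOF, which is 0, 0 and 0.0355 FPKM beside 0.156, 0.228 and 0.168 FPKM. It was called higher with a log2 fold change of 4.14 (SE 0.83, adjusted p = 0.0122, edgeR), a size that rests on 5 Control fragments and ran from 3.56 to 7.98 when each library was left out. Itgb8 (chr12:119158022-119238802, minus strand) measured 0.501, 0.326 and 0.392 FPKM in Control and 0.0716, 0.145 and 0.225 FPKM in GOF. It was called lower at -1.35 (SE 0.40, adjusted p = 0.0472, edgeR). That call was lost when any library but GOF 2 was left out, with adjusted p from 0.0793 to 0.104 (edgeR). Itgb4, the β partner of α6 in hemidesmosomes, was at 0.183, 0.240 and 0.167 FPKM in Control and 0.134, 0.116 and 0.156 FPKM in GOF. It did not pass the test (-0.51, SE 0.29, adjusted p = 0.249, edgeR), although its groups did not overlap.

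The laminin α chains, which carry the integrin-binding end of the trimer, included no member called higher by edgeR or DESeq2, nor one that was higher at an unadjusted p under 0.05. Lama4, the chain of vessel and mesenchymal laminins, dominated with 89.8% to 92.5% of all laminin α FPKM in Control and 93.3% to 95.3% in GOF. It measured 46.8, 70.7 and 72.4 FPKM in Control and 46.9, 39.9 and 51.1 FPKM in GOF, where Control 0 lay among the GOF values. The log2 fold change was -0.48 (SE 0.18, adjusted p = 0.109, edgeR).

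Lama2, the chain of muscle and nerve laminin also made by fibroblasts (chr10:26980036-27619758, minus strand), fell from 4.11, 6.12 and 3.93 FPKM to 1.35, 1.24 and 2.61 FPKM, by 1.42 on the log2 scale (SE 0.25, adjusted p = 0.00805, edgeR). Lama1, the chain of early embryonic basement membranes (chr17:67697259-67822647, plus strand), fell from 0.424, 0.853 and 0.815 FPKM to 0.141, 0.0372 and 0.169 FPKM, by 2.63 (SE 0.53, adjusted p = 0.0120, edgeR). Neither gene had overlapping groups. Lama5, a main chain of adult basement membranes, had a mean of 0.800 FPKM (SD 0.264) in Control and 0.937 FPKM (SD 0.339) in GOF (n = 3 each), with a log2 fold change of -0.34 (SE 0.44). That fold change, from fragments, points the other way from the FPKM means. Lama3, the chain of laminin-332 under the epidermis, had at most 22 fragments in any library and a log2 fold change of -0.41 (SE 0.72).

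The laminin β chains gave no called member in edgeR or DESeq2, and none had an unadjusted p under 0.05. Lamb1, the broadly used β chain, measured 51.1, 76.2 and 86.7 FPKM in Control and 71.3, 54.0 and 63.6 FPKM in GOF, and Lamb2, the β chain of synaptic and kidney laminin, measured 13.7, 27.7 and 27.8 FPKM in Control and 28.4, 13.6 and 31.5 FPKM in GOF. Both overlapped, with log2 fold changes of -0.19 (SE 0.21) and 0.05 (SE 0.39). Lamb3, the β chain of laminin-332, had 11, 21 and 11 fragments in Control and 23, 7 and 95 in GOF, so its log2 fold change of 1.47 (SE 0.83, adjusted p = 0.254, edgeR) came mostly from GOF 2. With animal as a block Lamb3 was called higher at 2.07 (adjusted p = 0.0340, edgeR), and G0s2, which lies inside Lamb3 on the opposite strand, was called lower.

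Lamc1, the γ chain of most laminins, measured 29.5, 53.7 and 54.7 FPKM in Control and 39.5, 29.1 and 40.6 FPKM in GOF, overlapping, with a log2 fold change of -0.39 (SE 0.26, adjusted p = 0.328, edgeR). Lamc3, the least widely used γ chain (chr2:31887291-31946539, plus strand), rose from 5, 2 and 4 fragments in Control to 86, 50 and 137 in GOF. In FPKM this was 0.0213, 0.00681 and 0.0150 beside 0.322, 0.231 and 0.495. Its log2 fold change of 4.52 (SE 0.54, adjusted p = 0.00163, edgeR) was the largest of the 34, while the GOF level stayed under 0.5 FPKM.

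Genes that work with integrins and laminins were counted from lists. Of 30 integrin adaptors, which link the β tail to actin and to kinases, 27 were tested, 3 were called higher and 0 lower, with a median log2 fold change of 0.285. At an unadjusted p under 0.05, 11 of the 27 adaptors were higher and 2 lower by edgeR, beside 17.6% and 17.3% of all tested genes, and DESeq2 called 0 lower. Lims2, a partner of integrin-linked kinase, measured 14.9, 12.7 and 12.5 FPKM in Control and 31.5, 27.4 and 35.0 FPKM in GOF, higher by 1.19 on the log2 scale (adjusted p = 0.00330, edgeR). Ptk2b, a kinase related to focal adhesion kinase, and Parvb, another partner of integrin-linked kinase, were higher by 1.49 and 1.39 (adjusted p = 0.00949 and 0.0110, edgeR). Actn1, Src, Ptk2 and Fermt2 had adjusted p under 0.05 (edgeR) with log2 fold changes from 0.44 to 0.70.

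Of 22 basement membrane partners all were tested, 2 were called higher and 5 lower, with a median of -0.034. Col4a1 and Col4a2, which form the main collagen IV network, fell by 1.53 and 1.44 on the log2 scale (adjusted p = 0.00342 and 0.00767, edgeR). Col4a1 went from 187, 250 and 248 FPKM in Control to 88.5, 64.0 and 89.3 FPKM in GOF, without overlap. Npnt, the nephronectin that Itga8 binds, rose from 0.530, 0.391 and 0.601 FPKM to 4.94, 2.93 and 5.50 FPKM, by 3.15 (adjusted p = 4.52e-04, edgeR). Egflam, a partner of dystroglycan, rose by 3.21 (adjusted p = 0.00551, edgeR). Without Control 1 or without GOF 0 the number called lower was 2 rather than 5, and with animal as a block 4 were called higher.

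Of 14 tested RGD ligands 1 was called higher, Npnt again, and 2 lower, with a median of 0.162. Postn and Thbs1 were on the list too, but their estimate failed in a library, so they are outside these counts and the median. Fn1, fibronectin, fell from 339, 207 and 241 FPKM to 137, 99.7 and 90.2 FPKM, by 1.33 (adjusted p = 0.0176, edgeR), and Fbn1, a microfibril protein, fell by 1.51 (adjusted p = 0.0386, edgeR). With animal as a block the number called lower was 1 rather than 2, as when Control 1, Control 2, GOF 0 or GOF 2 was left out, and without GOF 1 it was 0, while 2 were called higher without Control 0. Other laminin receptors such as dystroglycan gave 0 of 7 called by edgeR and 0 by DESeq2, with 2 higher and 1 lower at an unadjusted p under 0.05, and 1 was called higher by edgeR with animal as a block or without Control 0. Of 6 tested ligands of leukocyte integrins, edgeR called 0 and DESeq2 1, with 2 higher and 1 lower at an unadjusted p under 0.05, and 1 was called higher with animal as a block, with an estimated correlation between cultures of an animal, or without GOF 1. The 3 tested netrins, relatives of the laminin short arms, had 0 calls by edgeR or DESeq2 and 0 unadjusted p under 0.05, and 1 was called higher without GOF 0. Beside 6.69% called higher and 5.64% called lower over all tested genes, these counts are given as descriptions of each list.

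**Figure D5:**
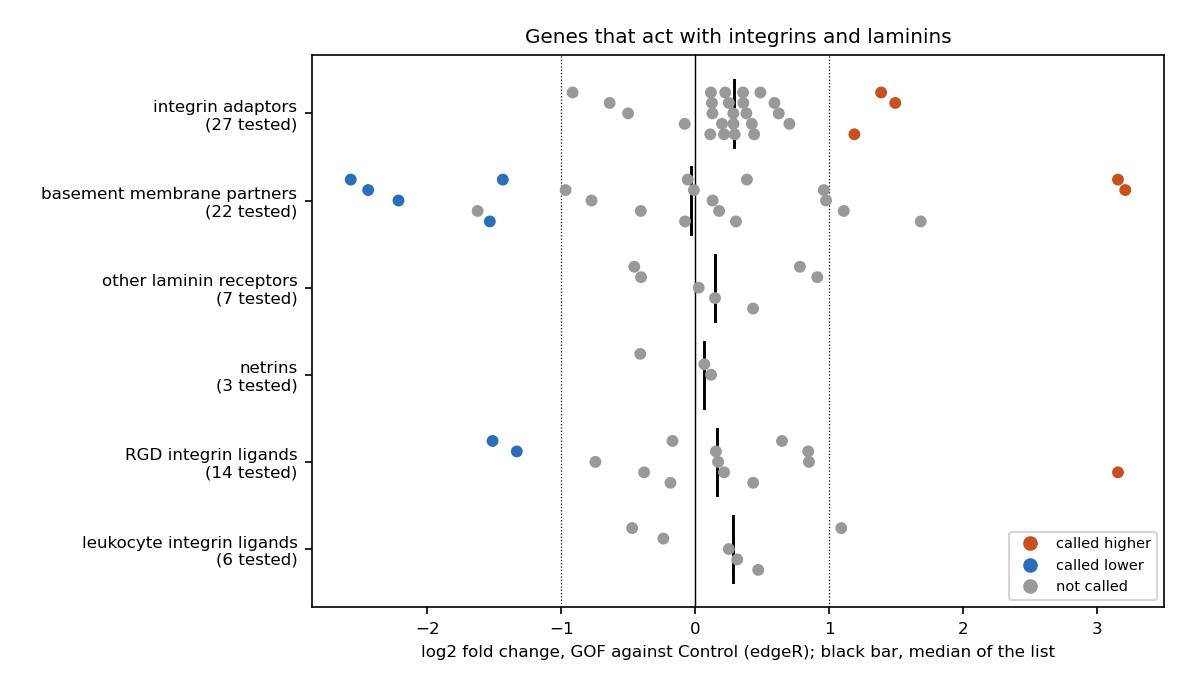
Log2 fold change (edgeR) of each tested gene in 6 lists of genes that act with integrins and laminins, orange where called higher, blue where called lower and grey where not called, with a black bar at the list's median. Basement membrane partners spread widest, from Frem2 at -2.57 to Egflam at 3.21.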

How the data were processed

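Libraries were made with a stranded kit and sequenced as paired 100 bp reads. The authors mapped reads to mm10 with TopHat and counted with Cuffdiff (versions not given in the sources used here). The deposited long tables hold, per gene and library, estimated counts of fragments, of which 4.95% were not whole and were rounded here, and the authors' FPKM, normalized to length and mapped fragments. The table of all genes was used for levels and tests, and the lncRNA table (5385 genes) only for overlaps with members. Not used were 6 columns of per-library values, namely 2 rescalings of the fragments and the effective length in both tables. Genes whose estimate failed in a library (32, none a member) were removed. Of gene IDs, 97.9% matched GENCODE M21.

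Counts were fitted with edgeR 4.0.16 (TMM, filterByExpr, quasi-likelihood F-test) in R 4.3.3. SE is the absolute log2 fold change over the root of F. The script was checked on simulated counts. Alternatives used DESeq2 1.42.0 and limma 3.58.1. P-values measure the spread between cultures. Replicate numbers do not mark animals: same-numbered cultures correlated at -0.41, 0.05 and -0.44 in their deviations from group means, and cultures of 1 animal at 0.41 and 0.46. The study's rule for calls (adjusted p under 0.05, fold over 2) was followed without a block. The members and all lists were chosen with earlier results of these data known. Every member was to be accounted for, called members and those with a mean of at least 10 FPKM per library, and of each related list up to 4 called genes with the smallest adjusted p. Marker genes were named from whole lists. The values of 1 called member are not reported here; it is included in counts and sums.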

Additional observations from a re-analysis of the deposited data

How the results depend on the processing

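Over the 530 values from alternatives for single members, 470 kept direction and side of the thresholds, 30 lost a call, 14 gained one and 16 reversed. The 1906 calls over all genes became 877 with limma on log2(FPKM + 1) and 618 when tested against a fold of 2. The 8 members called higher became 5 with a minimum of 1 FPKM in 3 libraries, 4 with limma on log2(FPKM + 1) and 3 when tested against a fold of 2, and the 4 called lower became 2, 2 and 0. Fewer genes were tested under the FPKM minimum, a pseudocount of 1 shrinks low genes, and the cause was otherwise not tested. Leaving out libraries gave 7 to 11 higher and 3 to 4 lower. A replicate block by label number gave 7 higher and 3 lower, and the paired fit by animal, which leaves 1 residual degree of freedom, gave 10 and 4 and changed the call of Itga7, Itga5, Itga8 and Lamb3 alone among members.

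Reversals fell on members that did not pass the test. Lama3 was 0.18 and Lamb1 0.0157 with the animal block, Lamb2 was -0.0121 with library totals, Itgam was -0.0168 and -0.0432 and Lama5 0.10 and 0.20 with limma at pseudocounts of 1 and 0.1. Leaving out libraries moved Itga2 from -0.13 to 0.26, Itgam from -0.27 to 1.19, Lama3 from -1.21 to 0.0391, Lama5 from -0.72 to 0.0658 and Lamb2 from -0.23 to 0.37. Depth limits members under 50 fragments, Itgb6, Itgb7, Itgae, Itgam, Lama3 and the Control values of Lamc3 among them, where folds rest on few fragments.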
